A study of Mus musculus with 24 samples.

Results

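The Nr4a and Egr factors were followed through the activation of CD4+ T cells. The 8 genes Nr4a1, Nr4a2, Nr4a3, Egr1, Egr2, Egr3, Nab1 and Nab2 were taken by name out of 22009 named entries of the expression table, and all 8 passed the filter on low values (at least 1 RPKM on average, where RPKM is the number of reads scaled by transcript length and by the depth of the library). CD4+ T cells were purified from the spleen of wild-type adult C57BL/6 mice by negative magnetic selection, and RNA from 24 libraries was sequenced. Resting cells gave 2 libraries. The Th0 cultures received anti-CD3e and anti-CD28 only, IL-12 and an antibody to IL-4 were added for Th1, and IL-4 with antibodies to IL-12 and IFN-γ for Th2. Each of these 3 skewing conditions had 1 library at each of 4, 8, 12, 16, 20 and 24 h. The other 4 were made after 16 h of stimulation followed by 0, 1, 2 or 4 h of actinomycin, a drug that blocks transcription, and their skewing condition is not given in the labels. The cells came from a pool of WT spleens and each combination of time and condition was sequenced 1 time, so p-values measure the spread between these libraries and not between animals. The methods speak of naive cells where the labels speak of purified CD4+ cells. The resting libraries carry another tag in their titles than the cultures do, so a difference of preparation cannot be told apart from activation.

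Nr4a1 (Nur77), Nr4a2 (Nurr1) and Nr4a3 (Nor1) are nuclear receptors that act without a known natural ligand and are regulated mainly by how much of them is made. Egr1, Egr2 and Egr3 are zinc finger transcription factors, and Nab1 and Nab2 are corepressors that bind Egr proteins and limit their activity. In T cells the Nr4a and Egr genes are immediate-early genes: the T cell receptor switches them on through calcium and the Ras-ERK pathway before new protein is made, and Nr4a1 transcription is widely used as a measure of receptor signal. Egr2, Egr3 and the Nr4a factors are also known for restraint of T cell responses, including anergy and exhaustion.

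The genes Nr4a1, Nr4a2, Nr4a3, Egr2 and Nab1 are shown here by the sequence around their start sites. The first 4 are factors that moved together through the time course, and Nab1 is shown for its matches to the Egr site. The sequences are from RefSeq (GRCm38.p6), run 5′ to 3′ on the strand of the gene, and cover 250 bases before and 50 bases after the start. For the Nr4a genes, capitals mark TGACG on either strand, the core of the site bound by CREB and ATF factors. For Egr2, capitals mark TGACG and the CArG box, the site of SRF. For Nab1, capitals mark GCGNGGGCG, the site bound by Egr factors.
Nr4a1, chr15:101266596-101266895, plus strand: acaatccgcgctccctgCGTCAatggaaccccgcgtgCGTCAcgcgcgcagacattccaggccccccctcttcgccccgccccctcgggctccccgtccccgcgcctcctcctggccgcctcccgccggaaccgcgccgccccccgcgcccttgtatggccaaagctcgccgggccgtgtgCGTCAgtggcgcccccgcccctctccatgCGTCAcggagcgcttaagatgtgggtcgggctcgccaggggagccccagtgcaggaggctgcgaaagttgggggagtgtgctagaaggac
Nr4a2, chr2:57123954-57124253, minus strand: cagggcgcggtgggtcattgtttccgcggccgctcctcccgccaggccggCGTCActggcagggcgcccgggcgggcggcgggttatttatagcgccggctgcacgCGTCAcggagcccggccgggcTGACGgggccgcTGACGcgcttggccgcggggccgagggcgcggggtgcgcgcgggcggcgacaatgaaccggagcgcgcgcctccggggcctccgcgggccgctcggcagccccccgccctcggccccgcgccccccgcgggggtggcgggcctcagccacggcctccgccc
Nr4a3, chr4:48045055-48045354, plus strand: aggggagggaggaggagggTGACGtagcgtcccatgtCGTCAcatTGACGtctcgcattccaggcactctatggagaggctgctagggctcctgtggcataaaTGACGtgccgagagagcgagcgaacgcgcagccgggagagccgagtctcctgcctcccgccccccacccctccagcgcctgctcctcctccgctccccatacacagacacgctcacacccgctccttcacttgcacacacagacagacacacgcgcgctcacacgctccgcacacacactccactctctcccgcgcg
Egr2, chr10:67537619-67537918, plus strand: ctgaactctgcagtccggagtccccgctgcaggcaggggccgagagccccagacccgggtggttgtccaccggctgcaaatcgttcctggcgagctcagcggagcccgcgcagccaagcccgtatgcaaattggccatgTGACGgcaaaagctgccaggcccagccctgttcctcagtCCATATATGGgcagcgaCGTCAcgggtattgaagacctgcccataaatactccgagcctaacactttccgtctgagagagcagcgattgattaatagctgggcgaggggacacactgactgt
Nab1, chr1:52500399-52500698, minus strand: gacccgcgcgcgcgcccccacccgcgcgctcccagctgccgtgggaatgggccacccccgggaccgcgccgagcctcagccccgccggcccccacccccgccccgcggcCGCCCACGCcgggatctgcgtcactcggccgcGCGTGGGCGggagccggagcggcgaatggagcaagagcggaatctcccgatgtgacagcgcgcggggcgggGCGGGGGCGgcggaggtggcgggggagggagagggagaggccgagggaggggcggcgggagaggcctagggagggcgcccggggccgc

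TGACG occurred 4 times in each of the 3 Nr4a windows, counted on both strands, so that a full palindrome counts on each strand. Of 32851 windows in the table, 20.8% held it at least 1 time and 0.231% held it at least 4 times. Egr2 had 5 windows for different start sites. The window printed, like 2 others that overlap it, held TGACG 2 times and 1 CArG box, a motif in 1.63% of all windows. The remaining 2 Egr2 windows lie further upstream and held no TGACG, and 1 of them held a CArG box. Neither motif occurred in the Nab2 window. The Nab1 window held GCGNGGGCG 3 times, against 5.55% of windows with at least 1 and 0.813% with at least 2. Nr4a1 and Nr4a2 held it 1 time each, and these letters did not occur in the Nab2 window. The Nab1 window also held TGACG 1 time, which is not marked in capitals. A further motif searched, AAAGGTCA, did not occur in the window of any member, against 1.51% of all windows with at least 1. Matches are a description of letters, not of binding. Windows were at hand for 6 of the 8 members, and Egr1 and Egr3 had no entry.

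Some of the values carry limits. Nab2 lies at chr10:127660918-127668568 on the minus strand and overlaps 3 genes on the opposite strand in GENCODE annotation: Nemp1 by 1668 bases, the antisense gene Gm16229 by 1646 bases and the end of Stat6 by 40 bases. Whether the counting used strand is not stated, so reads in these stretches cannot be assigned with certainty. Depth, recovered from the values, was between 17512385 and 33017133 mapped reads in the time course and between 18052931 and 25735543 in the actinomycin libraries. Only Nr4a1 and Egr3 among the members had values that were whole multiples of what 1 read is worth, so intervals are given for these genes alone, and they cover counting error only.

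Markers of other cells differed between rest and culture. The summed level of 19 monocyte and macrophage markers was 1078 and 1091 RPKM at rest, 232 to 258 RPKM at 4 h and 67.4 to 92.6 RPKM at 24 h. That of 12 B cell markers was 86.9 and 97.2 RPKM at rest and 14.2 to 30.7 RPKM at 24 h, and that of 9 red cell genes was 38940 and 42500 RPKM at rest and 142 to 212 RPKM at 24 h. The 13 T cell markers were also lower in culture, with sums of 3477 and 3528 RPKM at rest and 2182 to 2647 RPKM at 24 h. None of these 4 lists had a marker at 0 in every resting or 24 h library. Their part in the changes from rest was not tested, and in bulk RNA fewer cells of a type and less RNA per cell cannot be told apart. Cultures of the same hour were not always the closest match. Over 10897 genes, the Th2 library of 8 h differed from Th0 of 12 h with an SD of 0.39 (log2) and from Th0 of 8 h with an SD of 0.68, and the Th1 library of 8 h differed from Th0 of 12 h by 0.33 and from Th0 of 8 h by 0.46.

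In resting cells, Nr4a1 was the most abundant of the 8 genes, and Nr4a3 and Egr3 the least. The RPKM levels, which are per length, were 112 ± 0.69 for Nr4a1, 42.4 ± 2.08 for Nab1, 42.3 ± 0.827 for Egr1, 27.8 ± 0.547 for Nab2, 9.37 ± 1.84 for Nr4a2, 9.02 ± 0.292 for Egr2, 7.66 ± 0.807 for Nr4a3 and 4.90 ± 0.698 for Egr3 (SD, n = 2). Nab1 and Egr1 overlapped in this order, as did Nr4a2 with Egr2 and with Nr4a3. Egr4, the remaining gene of the Egr family, was low, with 4 reads in 1 resting library and 0 in the other, a count that allows up to 0.0596 RPKM. Across the 18 cultures Egr4 reached between 0.0768 and 0.865 RPKM.

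At 4 h of stimulation all 8 genes were above both resting libraries in all 3 cultures, as were 23.9% of the 10897 genes tested. With limma, 7 of the 8 rose at least 2-fold at an adjusted p under 0.05, whereas 2.61% of all genes rose and 7.97% fell. In this fit the Th0, Th1 and Th2 cultures served as the 3 libraries of each hour. The standard errors against rest thus include differences between conditions. The median log2 difference of the 8 genes was 2.29, against -0.04 for all genes tested. Nab1 was the exception, with 50, 49.0 and 60.4 RPKM in Th0, Th1 and Th2 against 41.0 and 43.9 RPKM at rest, a log2 difference of 0.31 (standard error 0.15, adjusted p = 0.115, limma).

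**Figure D1:**
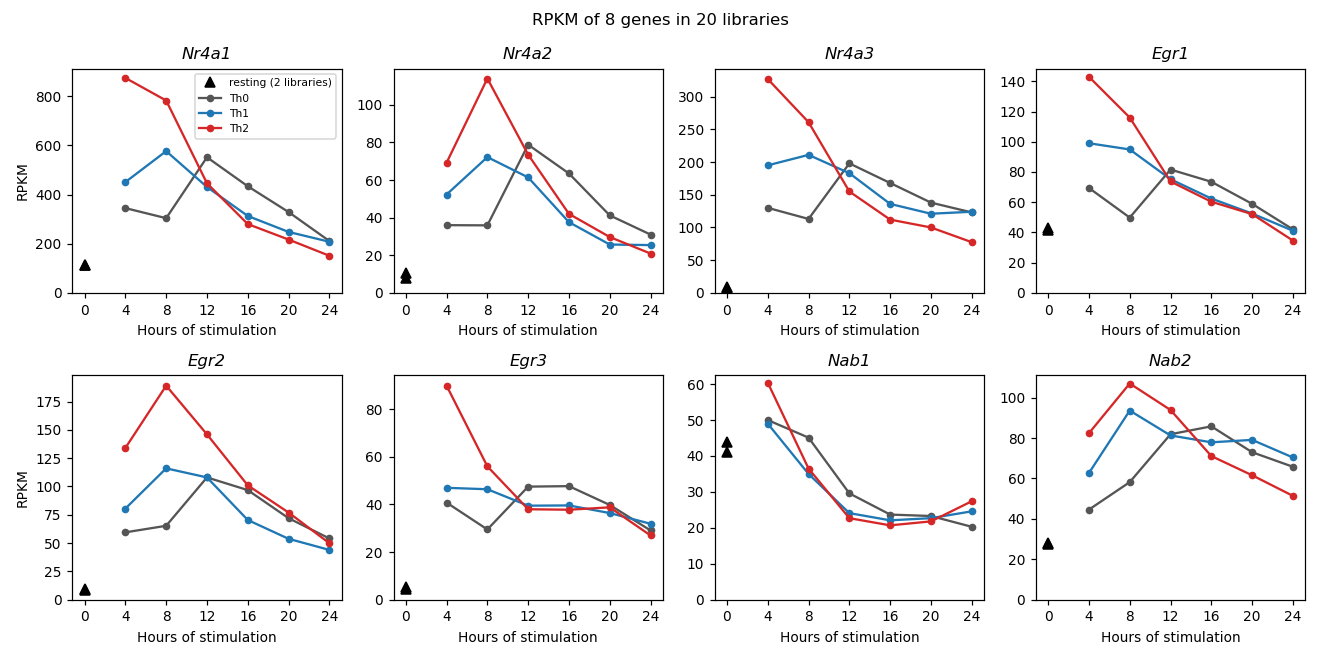
RPKM of each gene (vertical axis) against hours of stimulation (horizontal axis). Triangles are the 2 resting libraries and lines join the single libraries of Th0, Th1 and Th2. The highest Nr4a1 values were 875 RPKM for Th2 (4 h) and 552 RPKM for Th0 (12 h), and all lines except those of Nab1 peak later in Th0 than in Th2.

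Nr4a3 had the largest rise of the 8 genes. It went from 7.09 and 8.23 RPKM at rest to 130, 195 and 327 RPKM in Th0, Th1 and Th2 at 4 h. The lowest culture lay far above both resting libraries. The log2 difference was 4.64 (standard error 0.35, adjusted p = 4.93e-08, limma), or 24.9-fold on the scale of RPKM + 0.5.

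Nr4a1 was already high at rest and rose less. It had 112 and 113 RPKM at rest and 345 (95% Poisson interval 340 to 350), 451 and 875 RPKM in Th0, Th1 and Th2 at 4 h. The log2 difference was 2.19 (standard error 0.36, adjusted p = 0.000232, limma). Nr4a2 had 10.7 and 8.07 RPKM at rest and 36.0, 52.3 and 69.2 RPKM at 4 h, a log2 difference of 2.39 (standard error 0.37, adjusted p = 0.000131, limma). Th2 was the highest culture and Th0 the lowest for all 3 receptors.

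Among the Egr genes, Egr2 and Egr3 rose strongly and Egr1 modestly. Egr2 went from 8.82 and 9.23 RPKM at rest to 59.5, 80.5 and 134 RPKM in Th0, Th1 and Th2 at 4 h (log2 difference 3.19, standard error 0.35, adjusted p = 4.09e-06, limma). Egr3 went from 5.40 RPKM (151 reads, 95% Poisson interval 4.57 to 6.33) and 4.41 RPKM (147 reads, 3.73 to 5.18) to 40.8, 47.0 and 89.9 RPKM (log2 difference 3.38, standard error 0.27, adjusted p = 1.12e-07, limma). Both genes started below 10 RPKM and were above 25 RPKM in every culture of the time course. Egr1, by contrast, started at 41.7 and 42.9 RPKM and had 69.4, 99.0 and 143 RPKM at 4 h (log2 difference 1.22, standard error 0.28, adjusted p = 0.00303, limma).

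Of the corepressors, only Nab2 rose past the threshold, from 28.2 and 27.4 RPKM at rest to 44.6, 62.7 and 82.4 RPKM at 4 h (log2 difference 1.13, standard error 0.24, adjusted p = 0.00178, limma). The rises of Egr1 and Nab2 fell under 2-fold without the Th2 culture of 4 h, with log2 differences of 0.96 (adjusted p = 0.014, limma) and 0.92 (adjusted p = 0.00833, limma).

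The rise was kept for 24 h by some of the genes and lost by others. At 8, 12, 16 and 20 h, 6 of the 8 genes were past the threshold above rest, all but Egr1 and Nab1, with 6.42%, 10.7%, 11.2% and 12.9% of all genes tested at these hours. At 24 h, 5 of the 8 genes were still at least 2-fold above rest, as were 12.7% of all genes tested. Nr4a3 had 123, 124 and 77.5 RPKM in Th0, Th1 and Th2, which was 13.0-fold above rest (log2 difference 3.71, adjusted p = 1.83e-07, limma). Egr2 (2.38), Egr3 (2.47), Nr4a2 (1.41) and Nab2 (1.14) were the other 4, by their log2 differences, with adjusted p between 1.12e-06 and 0.00338 (limma).

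Egr1 and Nr4a1 no longer passed the threshold. Egr1 had 42.0, 41.1 and 34.6 RPKM at 24 h, below both resting values in Th1 and Th2 and between them in Th0 (log2 difference -0.11, standard error 0.28, adjusted p = 0.741, limma). Nr4a1 had 211, 208 and 151 RPKM, all above its resting values, with a log2 difference of 0.74 (standard error 0.36, adjusted p = 0.0816, limma). Nab1 went the other way. From 12 h on it lay between 20.3 and 29.6 RPKM in every culture, below both resting libraries, and at 24 h it differed from rest by -0.81 on the log2 scale, which is under 2-fold (adjusted p = 0.000158, limma, standard error 0.15). The 24 h cultures all lay below both resting libraries for Nab1, as for 41.9% of genes tested, and all above for the Nr4a genes, Egr2, Egr3 and Nab2, as for 38.7%.

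**Figure D2:**
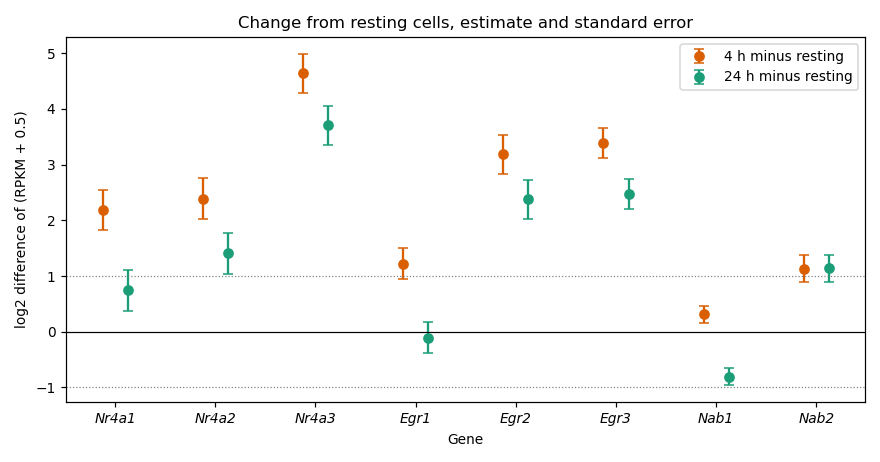
Log2 difference of RPKM + 0.5 from resting cells (vertical axis) for each gene (horizontal axis), at 4 h and at 24 h. Points are limma estimates over 3 cultures and 2 resting libraries, bars are standard errors, and dotted lines mark 2-fold. Nr4a3 is highest at both times (4.64 and 3.71), and Egr1 and Nab1 are at -0.11 and -0.81 at 24 h.

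Directly compared, 24 h lay below 4 h for 7 of the 8 genes, as for 5513 of 10897 genes tested. The fall was at least 2-fold and significant for Nr4a1 (-1.45, standard error 0.33, adjusted p = 0.00096, limma), Egr1 (-1.34, standard error 0.25, adjusted p = 0.000209, limma) and Nab1 (-1.13, standard error 0.13, adjusted p = 2.55e-06, limma), with 13.2% of all genes past the threshold in this direction. Nr4a2, Nr4a3, Egr2 and Egr3 had log2 differences between -0.98 and -0.81, with adjusted p between 0.0033 and 0.0309 (limma) but under 2-fold. Nab2 had 0.02 (standard error 0.21). Of the 8 genes, 1 fell past the threshold without the Th2 cultures and 7 without the Th0 cultures. Over all genes, 3114 and 2726 then passed in either direction, against 2857 with all cultures.

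In most of the genes, Th0 reached its highest level later than Th1 and Th2 did. In 7 of the 8 genes, all but Nab1, Th1 and Th2 were highest at 4 or 8 h and Th0 at 12 h or later, a pattern found in 3.87% of 10737 genes. In Th0, Nr4a1 had 345, 304, 552, 434, 329 and 211 RPKM at 4, 8, 12, 16, 20 and 24 h. In Th1 its values were 451, 577, 431, 313, 248 and 208 RPKM. In Th2 they were 875, 783, 446, 280, 217 and 151 RPKM. The Th2 series thus fell at each step from 4 h on, while the Th0 series rose between 8 and 12 h before it fell.

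Egr2 was highest at 8 h in both Th1 and Th2 and at 12 h in Th0. Its values were 59.5, 65.3, 108, 96.8, 72.0 and 54.1 RPKM in Th0 over the 6 times. In Th1 they were 80.5, 116, 108, 70.4, 53.8 and 44.0 RPKM. In Th2 they were 134, 189, 146, 101, 77 and 49.9 RPKM. Egr2 in Th2 was the highest of the 3 conditions at every time except 24 h, where Th0 was highest.

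Averaged over the 6 times, none of the 8 genes differed at least 2-fold between conditions at an adjusted p under 0.05. Of all genes tested, 0.186% were higher and 1.83% lower in Th2 than in Th0, and the shares were 0.568% and 1.39% for Th2 against Th1 and 0.177% and 0.317% for Th1 against Th0. The nearest to the threshold was Egr2, with a log2 difference of 0.53 between Th2 and Th0 (standard error 0.17, adjusted p = 0.0304, limma) and of 0.51 against Th1 (adjusted p = 0.0627, limma, standard error 0.17). Without adjustment Egr2 was also the only one of the 8 genes under 0.05, in these same 2 comparisons.

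The difference from Th0 depended on the hour. At 4 and 8 h alone (6 cultures), 6 of the 8 genes were at least 2-fold higher in Th2 than in Th0 at an adjusted p under 0.05 with limma, against 2.78% of 10870 genes. Their log2 differences were 1.35 for Nr4a1 (standard error 0.21), 1.29 for Nr4a2 (0.21), 1.27 for Nr4a3 (0.19), 1.13 for Egr1 (0.19), 1.35 for Egr2 (0.19) and 1.02 for Egr3 (0.20), with adjusted p between 0.00317 and 0.012. Nab2 had 0.88 (standard error 0.18, adjusted p = 0.0131, limma) and Nab1 had -0.02 (standard error 0.20, adjusted p = 0.968, limma). Over all genes, Th0 of 8 h differed less from Th2 of 4 h (SD 0.41, log2) than from Th2 of 8 h (0.68). Th0 of 4 h was closest to Th2 of the same hour (0.48). The part of such a shift in timing in these differences was not tested. At 16, 20 and 24 h Th2 was below Th0 in Nr4a1, Nr4a2, Nr4a3, Egr1, Egr3 and Nab2, genes that were above it at 4 and 8 h. This pattern of signs was seen in 3.27% of all genes tested. For Egr3 the ratios of Th2 to Th0 at 20 and 24 h (0.974 and 0.928) had 95% binomial intervals that include 1 (0.904 to 1.05 and 0.850 to 1.01). In a limma fit of 12 to 24 h alone, 0 of the 8 genes were at least 2-fold lower in Th2, against 1.73% of 10556 genes. Smaller differences had an adjusted p under 0.05 in Nr4a1 (-0.51, standard error 0.09), Nr4a2 (-0.43, 0.10), Nr4a3 (-0.51, 0.08) and Egr1 (-0.22, 0.07), and Egr3 had -0.20 (adjusted p = 0.118, limma). The share of all genes at this cutoff without a fold limit was not counted, so no weight is placed on how many members met it.

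**Figure D3:**
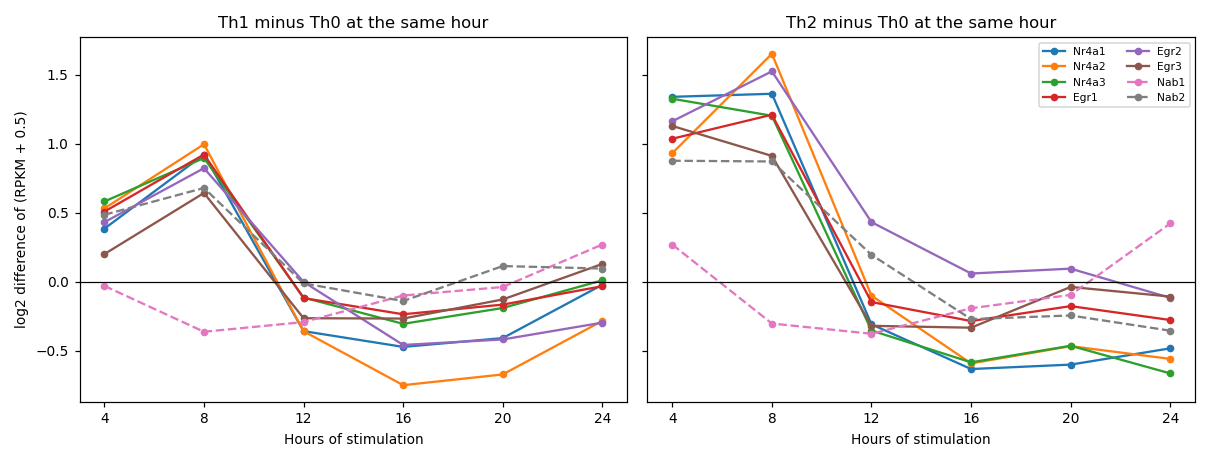
Log2 difference of RPKM + 0.5 from the Th0 library of the same hour (vertical axis) against hours of stimulation (horizontal axis), for Th1 (left) and Th2 (right). Each point is 1 library against 1 library and dashed lines are the corepressor genes. The Nr4a and Egr genes lie above 0 at 4 and 8 h in both panels, and in the Th2 panel all of these but Egr2 lie below 0 from 12 h on.

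The change of the Th2 minus Th0 difference with time was tested as a linear trend in a fit with the hour as a factor. It is given as the log2 change of the fitted line over the 20 h from 4 to 24 h. This is not the difference at 24 h minus that at 4 h. In 6 of the 8 genes the difference fell at an adjusted p under 0.05 (limma, no fold limit), as in 4.05% of all genes tested. The trend was -2.19 for Nr4a1 (standard error 0.43, adjusted p = 0.0123), -2.04 for Nr4a2 (0.45, adjusted p = 0.022) and -2.17 for Nr4a3 (0.37, adjusted p = 0.00679). For the Egr genes it was -1.56 for Egr1 (0.34, adjusted p = 0.0197), -1.58 for Egr2 (0.30, adjusted p = 0.0101) and -1.30 for Egr3 (0.37, adjusted p = 0.056), of which Egr3 missed the threshold. Nab2 had -1.43 (0.24, adjusted p = 0.00565) and Nab1 had 0.22 (0.27, adjusted p = 0.649). In the trends of Th2 against Th1 and of Th1 against Th0, 0 of the 8 genes passed the threshold (limma). Of all genes tested, 0.81% and 0.00931% fell past it. Unadjusted p was under 0.05 in 4 and in 5 of the 8 genes (limma). The share of all genes under this looser cutoff was not counted, so no weight is placed on these counts. All 3 comparisons share cultures, and the points of a series are single libraries of 1 culture time each, so these p-values measure the spread around the trend and not between repeats of the experiment.

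The 20 libraries also gave the likeness of the time courses, as Pearson correlation of log2(RPKM + 0.5), which is a description of points that share libraries and depth. The resting libraries are among them, so the step from rest to culture enters each r. Correlations over the cultures alone were not computed. Among the members, Nr4a3 and Egr3 were the most alike (r = 0.98), followed by Nr4a1 with Nr4a2 and Nr4a2 with Egr2 (both r = 0.95). Nab1 was apart, with r between -0.37 and 0.39 to the other 7. Of 8470 genes outside the group that averaged 5 RPKM or more, the nearest to Nr4a1 were Slc41a1 and Zswim4 (both r = 0.96) and Kdm6b (r = 0.95), and the nearest to Nr4a2 were Map2k3 (r = 0.97), Med14 and Chd1 (both r = 0.94). Sema7a and Pmepa1 were nearest both to Nr4a3 (r = 0.98 and 0.96, then Hif1a with 0.95) and to Egr3 (r = 0.96 and 0.95, then Nfkbid with 0.94). Egr1 was nearest to Kdm6b (r = 0.93), Fosl2 and Jarid2 (both r = 0.91), and Egr2 to Slc39a6 (r = 0.97), Zfp948 and Lgals7 (both r = 0.96). For Nab1 they were Zfand6 (r = 0.95), Arf2 and Kdm6a (both r = 0.94), and for Nab2 Srprb and Pdcd1 (both r = 0.97) and Isy1 (r = 0.96). Pdcd1 encodes the inhibitory receptor PD-1.

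Among the other immediate-early genes, falls outnumbered rises. Of 38 tested, which include the Fos, Jun, Ier, Dusp and Klf genes, 3 rose and 13 fell at 4 h against rest, with a median log2 difference of -0.24. At 24 h, 3 had risen and 18 had fallen (median -0.92). Of all genes tested, 2.61% rose and 7.97% fell at 4 h, and 12.7% and 17.4% at 24 h. Their summed level was 4923 and 5101 RPKM in the resting libraries and 2591 to 3583 RPKM at 4 h, the lower range being that of the cultures. In the trend of Th2 against Th0, 13 of the 38 passed the threshold in the falling direction, against 4.05% of all genes, and none in the rising direction.

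The genes attributed to these factors in T cells were also counted. Of 22 genes attributed to Egr2 and Egr3, such as Cblb, Nrgn and Tnfrsf9, 9 rose and 1 fell at 4 h (median 0.88), and at 24 h 9 had risen and 4 had fallen (median 0.78). Of 19 genes attributed to Nr4a factors, among them Foxp3, Il2ra, Pdcd1 and Irf4, 6 rose and 1 fell at 4 h (median 0.66), and 6 had risen and 4 had fallen at 24 h (median 0.57). Over all genes tested, 2.61% rose and 7.97% fell at 4 h, and 12.7% rose and 17.4% fell at 24 h. The trend of the Th2 minus Th0 difference was falling past the threshold in 9 of the 22 and in 7 of the 19, against 4.05% of all genes tested. Of 31 signalling genes around SRF, the TCF factors and ERK, 3 rose and 2 fell at 4 h, and of 14 genes for RXR and NuRD partners 0 rose and 1 fell (limma, medians 0.01 and -0.03).

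**Figure D4:**
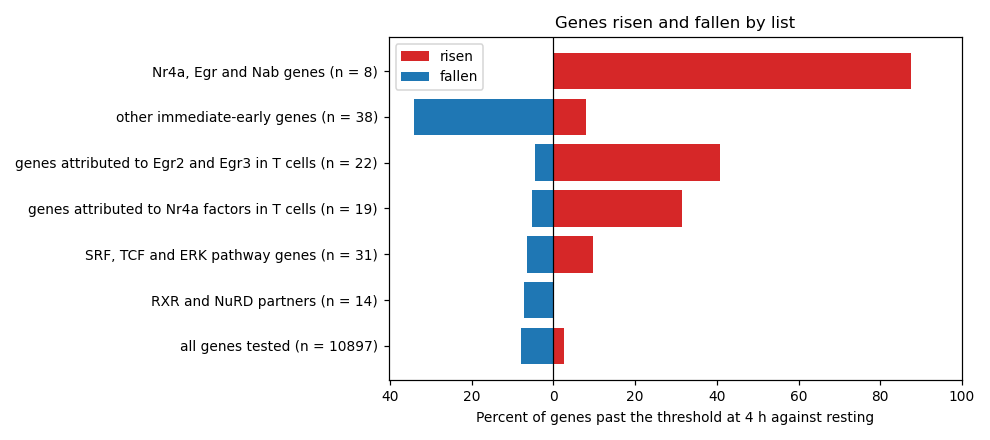
Percent of tested genes in each list (horizontal axis) that rose (red, to the right) or fell (blue, to the left) at least 2-fold at 4 h against resting cells with an adjusted p under 0.05. Of the Nr4a, Egr and Nab genes 7 of 8 rose, of the other immediate-early genes 3 of 38 rose and 13 fell, and of all genes tested 2.61% rose and 7.97% fell.

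After actinomycin, transcripts of the Nr4a and Egr genes were at 0.809 to 1.14 times their starting level at 1 h and at 0.355 to 0.829 times at 2 h. There was 1 library per time, so these differences have no replicate check. Nr4a1 had 82.2, 82.8, 33.6 and 46.0 RPKM at 0, 1, 2 and 4 h. The ratio of 2 h to 0 h was 0.408 (95% binomial interval 0.386 to 0.432, counting error only), and the ratio of 4 h to 2 h was 1.37 (1.28 to 1.46). The level was thus lowest at 2 h and higher again at 4 h.

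Nr4a3 had 53.0, 47.2, 22.1 and 28.0 RPKM over the same times. Egr1 had 32.0, 36.6, 12.6 and 20.2 RPKM. Egr2 had 43.0, 34.8, 15.3 and 18 RPKM. Together with Nr4a1 these were the 4 members at least 2-fold lower at 2 h than at 0 h, against 3.57% of 10571 genes tested, and 0 of the 8 were so at 1 h (0.634% of all genes). Egr2 alone remained so at 4 h (6.55% of all genes), with a ratio of 0.418. Scaled to the summed RPKM of ribosomal protein genes, 6 members and 1581 genes were at least 2-fold lower at 2 h, and 4 members and 1768 genes at 4 h.

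Egr3 had 11.5, 12.7, 6.29 and 9 RPKM and Nab2 had 27.4, 22.5, 13.8 and 18.3 RPKM, both close to 2-fold lower at 2 h (ratios 0.549 and 0.503). Nr4a2 had its highest level at 4 h, with 15.9, 15.8, 13.2 and 19.9 RPKM. Nab1 had 20.3, 19.2, 20.0 and 15.2 RPKM and was lowest at 4 h. In 7 of the 8 genes, all but Nab1, the level was lower at 2 h than at 0 h and higher at 4 h than at 2 h, as in 33.8% of all genes tested. The red cell markers moved the same way in these libraries, with 7 of 7 tested lower at 2 h than at 0 h (median log2 change -1.10) and 7 of 7 higher at 4 h than at 2 h (median 1.03). Their part in the pattern was not tested. The slopes of log2(RPKM + 0.1) over the 4 times were between -0.34 per h for Egr2 (standard error 0.18) and 0.08 per h for Nr4a2 (standard error 0.08), with a median of 0.002 per h over all genes. With 4 times an exact permutation test cannot give a two-sided p below 0.0833, and the slopes of the 8 genes had p between 0.125 and 0.583.

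**Figure D5:**
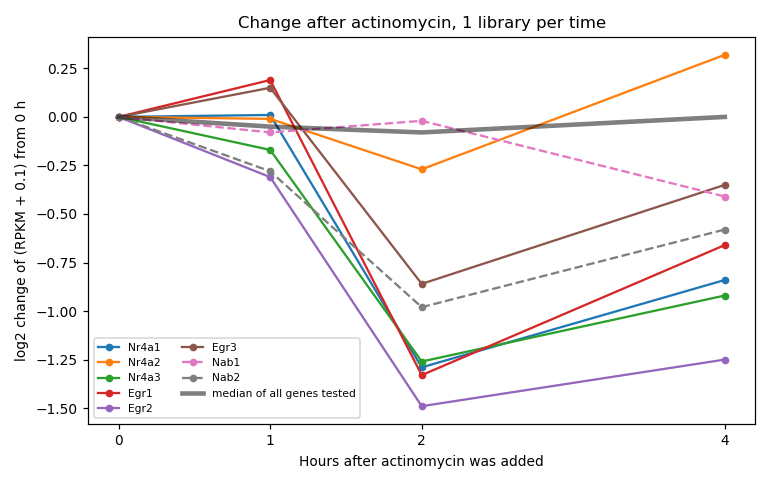
Log2 change of RPKM + 0.1 from the 0 h library (vertical axis) against hours after actinomycin (horizontal axis), with 1 library per time and no error bars. Dashed lines are the corepressor genes and the thick line is the median of 10571 genes. Egr2 is lowest at 2 h (-1.49), Nr4a2 ends at 0.32, and the median stays between -0.08 and 0.

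The level before the drug was also low. The 0 h library lay below all 3 cultures of 16 h for all 8 genes, as for 38.3% of genes tested, and at least 2-fold below all 3 for Nr4a1, Nr4a2, Nr4a3, Egr3 and Nab2, as for 0.596% of genes tested. For Nr4a1 it had 82.2 RPKM, against 434, 313 and 280 RPKM in Th0, Th1 and Th2 at 16 h, and also less than the 112 and 113 RPKM of resting cells. For Nab1 the values were close, with 20.3 RPKM against 23.7, 22.1 and 20.7 RPKM. The titles of the actinomycin libraries lack the tag of the cultures, and some cell markers differed. Summed B cell markers were at 4.43 to 5.89 RPKM in the 4 actinomycin libraries and 23.2 to 38.1 RPKM in the 16 h cultures. NK cell markers were at 8.08 to 13.5 and 34.8 to 91.0 RPKM. Those of T cells overlapped (2649 to 2907 and 2587 to 2733 RPKM), as did those of monocytes and macrophages. Their part in the low level was not tested. After the drug, 24 of 37 other immediate-early genes were at least 2-fold lower at 2 h than at 0 h, against 3.57% of all genes tested. So were 4 of 22 genes attributed to Egr2 and Egr3 and 3 of 19 attributed to Nr4a factors.

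Because AU-rich elements in the 3′ untranslated region are known to shorten the life of many immediate-early transcripts, the motif TATTTAT was counted in the longest coding transcript of each gene (GENCODE). The shorter core ATTTA occurred in all 8 genes, between 2 times (Egr1) and 7 times (Egr3). Its share over all genes was not counted, so whether this is particular to these genes cannot be said. TATTTAT occurred in Nr4a2, Nab1 and Nab2 (1 time each) and in Nr4a3 (2 times), and its letters did not occur in Nr4a1, Egr1, Egr2 or Egr3. Of 9930 genes tested after actinomycin with such a region, 29.8% held it. The median log2 change from 0 to 2 h was -0.19 for genes with the motif and -0.04 for genes without it. Among the members with the motif, the log2 change was -0.27 for Nr4a2, -1.26 for Nr4a3, -0.02 for Nab1 and -0.98 for Nab2. Among those without it, the change was -1.29 for Nr4a1, -1.33 for Egr1, -1.49 for Egr2 and -0.86 for Egr3. The part of the motif in these changes was not tested.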

How the data were processed

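The values deposited for the 24 libraries are RPKM, 1 per gene symbol and library, made by the authors from Illumina NextSeq reads. The submitters' processing notes name BWA and the build GRCm38, and the counting tool is not given in the sources used here. Mapped reads were recovered from genes with a single transcript whose values were whole multiples of 1 step (tolerance 0.02), which gave the depth and 95% Poisson or conditional binomial intervals. Log2(RPKM + 0.5) values of genes averaging 1 RPKM or more were tested with limma 3.58.1 (R 4.3.3, intensity trend, Benjamini-Hochberg adjustment over all genes). Genes passed at an adjusted p under 0.05 and 2-fold or more. Times were compared with rest over 20 libraries, and conditions and their trends over 18 cultures with the hour as a factor. Slopes after actinomycin used log2(RPKM + 0.1). The scripts were tested on simulated data. The genes named were the 8 members, Egr4, the 3 genes most like each member, and examples from the lists. Members and lists were chosen with earlier results of these data known. Python 3.11.15, numpy 2.4.6 and pandas 2.3.3 were used. Pseudocounts, filters, scalings and left-out libraries were varied.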

Additional observations from a re-analysis of the deposited data

Results flagged for a closer look

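The effect of the hour differed between Th2 and Th0 in 6 of the 8 genes, by the test of the trend itself (limma, adjusted p under 0.05). A straight line was fitted to the Th2 minus Th0 difference (log2), and its change over the 20 h from 4 to 24 h is given. It was -2.19 for Nr4a1, -2.04 for Nr4a2, -2.17 for Nr4a3, -1.56 for Egr1, -1.58 for Egr2 and -1.43 for Nab2. The single ratios did not lie on a line. For Nr4a1 they were 2.54, 2.58, 0.808, 0.644, 0.658 and 0.715 at 4, 8, 12, 16, 20 and 24 h. Of all genes tested, 4.05% passed in this direction. Without the 4 h time point, 6 of the 8 passed in this direction as well, but so did 1916 of 10634 genes (18%). Nab1 then passed in the rising direction (0.87, standard error 0.23, adjusted p = 0.0159, limma), and 3035 genes passed in either direction. Each condition had 1 library per hour.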

How the results depend on the processing

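Of 1384 values of single members under the alternatives for time and condition, 1352 gave the same call as reported, 24 newly passed it, 8 no longer did and 0 changed sign past it. Of 400 counts, 371 stayed within 1.5 times. With the filter raised to an average of 5 RPKM, 646 genes passed at 4 h against 1152, 1334 at 8 h against 2059, 12 fell at least 2-fold by 1 h of actinomycin against 67, and 193 by 2 h against 377. The number of members that fell from 4 to 24 h was 3 as reported, 5 under quantile normalization, 6 when scaled without the haemoglobin genes, and 1 to 7 when a condition was left out. With only 4 and 8 h, 610 genes and 6 members passed for Th2 against Th0, where all hours gave 216 and 0 and 12 to 24 h gave 208 and 0. Without the replicate block, that is without the hour in the fit, 79 genes passed for Th2 against Th0, 103 (of 210) for Th2 against Th1 and 19 (of 53) for Th1 against Th0. Without the 4 h time point, a choice added after seeing the data, 3035 genes passed the trend of Th2 against Th0 (553 with it), 363 that of Th2 against Th1 (117) and 45 that of Th1 against Th0 (3, which became 8 when quantile-normalized and 1 with scaling by median of ratios).

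After actinomycin, pseudocounts of 0.5 and 1 gave 33 and 18 genes at 1 h, and a pseudocount of 1 gave 227 at 2 h. No filter gave 425, 775 and 1077 genes at 1, 2 and 4 h, and quantile normalization gave 44 at 1 h. Scaled to the summed RPKM of ribosomal protein genes, 243, 1581 and 1768 genes were at least 2-fold lower at 1, 2 and 4 h, as were 4 members at 4 h, and the median of all genes moved to -0.33, -0.57 and -0.39. The cause of these shifts was not tested. RPKM is a share of the library, so a fall of all RNA after actinomycin would not show. Only 2 resting libraries and single cultures limit what can be tested.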
